A study of Mus musculus with 8 samples.

Results

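The nuclear receptors are a family of transcription factors that are switched by small fat-soluble molecules. In the liver several of them act as sensors of drugs, bile acids, oxysterols, thyroid hormone and glucocorticoids, and they set the output of the cytochrome P450, lipid and bile acid genes that define a mature hepatocyte. Most bind DNA as a pair of proteins on repeats of the core AGGTCA, and many of those pairs contain the common partner RXRα. The aryl hydrocarbon receptor is no nuclear receptor but a bHLH-PAS protein that binds dioxin-like ligands and recognises the core GCGTG, and it is grouped with them here as a xenobiotic sensor.

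Accessibility at 10 such genes was followed in the bulk ATAC-Seq libraries of regenerating mouse liver, out of 55413 genes annotated. They are Nr1i2 (PXR), Nr1i3 (CAR), Rxra (RXRα), Ahr, Nr1h3 (LXRα), Nr2f2 (COUP-TFII), Rora (RORα), Esrra (ERRα), Thrb (TRβ) and Nr3c1 (the glucocorticoid receptor). Each gene was taken as its annotated body in mm10 with 10 kb on either side. Intervals within 1 kb of an annotated transcription start site (TSS) of the gene were kept apart as promoter intervals, and all others were called distal. Of the 73710 regions obtained by merging the 50000 strongest intervals of each library, 147 lay in these 10 windows. Among them 16 were promoter regions of the 10 genes, 13 were promoters of neighbouring genes and 118 were distal.

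In ATAC-Seq the Tn5 transposase cuts and tags DNA that is not covered by nucleosomes, so that a peak marks open chromatin. All 8 libraries came from C57BL/6 mice on a normal diet, given in the labels as 10 to 12 weeks old and in the study's methods as male C57BL/6J. Hepatocytes were freed from the liver by two-step collagenase perfusion, either from undamaged liver (0 h) or at 48, 72 or 96 h after partial hepatectomy (PHx), the removal of part of the liver that sets the remaining hepatocytes dividing. Each of the 4 time points had 2 libraries, numbered as replicates. The study describes its bulk libraries of 0 and 48 h as 3 biological replicates from separate hepatocyte preparations, while 2 libraries a time point were at hand here. The labels tie no library to an animal, and p-values measure the spread between these libraries. In limma the spread of each region was moderated toward the trend over all regions, with 15.5 prior and 4 residual degrees of freedom. The list of 72 h replicate 2 is named in another form than the other 7, without the flow cell that those share, so a difference in its sequencing run cannot be told apart from that library. The labels name no genotype or transgene, and the 3 later time points were all compared with the same pair of 0 h libraries, whose deviations they share.

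The lists held 105206 to 154577 distinct intervals, and the −log10 p of the interval at rank 50000 ranged from 8.05 to 15.2. Read counts are not part of the lists, so sequencing depth is unknown. Strength was therefore read on 3 scales. The first is the rank of an interval in its own list, the second the percentile, which is 100 for the strongest interval of a list and counts as 0 in a mean where no interval was found, and the third the peak caller's fold enrichment over local background, compared between libraries as its quantile-normalised log2. Its median over a whole list was 4.55 and 5.07 (0 h), 3.95 and 3.73 (48 h), 4.29 and 3.90 (72 h), and 4.14 and 4.09 (96 h). Values before normalisation therefore differ between whole lists as well as between sites. Of 10 hepatocyte marker genes, all 10 had a promoter interval in both 0 h lists, 7 and 8 in the 48 h lists, 9 and 8 (72 h) and 10 and 9 (96 h), with replicate 1 first, as in every pair of library values here. The promoter intervals of Alb (albumin) and Tat were missing from both 48 h lists, and that of Alb also from both 72 h lists and 96 h replicate 2. Of 6 Kupffer cell genes 4 had no promoter interval in any list and none of the 6 had one at 48 h, and all 5 lymphocyte genes were without one throughout. Of the 6 endothelial genes 1 (Kdr) had a promoter interval in all 8 lists, and of the stellate cell and cholangiocyte genes Lrat, Reln, Epcam and Sox9 did. A bulk library cannot tell fewer cells of a type from less accessibility in each cell, and the part of these marker differences in the values below was not tested.

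The promoters are shown first, because they ranged from CpG-poor to CpG-rich. RefSeq promoter windows (GRCm38.p6, the mm10 assembly, from 250 bases before to 50 after the start) were at hand for 8 of the 10 genes. Those of the drug receptor genes Nr1i2 and Nr1i3, both CpG-poor, and of Rxra and Thrb, both CpG-rich, are printed 5′ to 3′ on the strand of the gene, with every CpG in capitals. The windows are chr16:38294775-38295074 (minus strand) for Nr1i2, chr1:171213720-171214019 (plus) for Nr1i3, chr2:27676951-27677250 (plus) for Rxra and chr14:17660710-17661009 (plus) for Thrb.
Nr1i2: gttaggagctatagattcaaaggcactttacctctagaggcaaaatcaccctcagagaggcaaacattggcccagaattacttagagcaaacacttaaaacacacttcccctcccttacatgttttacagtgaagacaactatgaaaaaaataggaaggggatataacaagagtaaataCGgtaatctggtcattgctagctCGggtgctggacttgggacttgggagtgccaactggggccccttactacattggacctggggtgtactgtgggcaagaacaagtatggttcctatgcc
Nr1i3: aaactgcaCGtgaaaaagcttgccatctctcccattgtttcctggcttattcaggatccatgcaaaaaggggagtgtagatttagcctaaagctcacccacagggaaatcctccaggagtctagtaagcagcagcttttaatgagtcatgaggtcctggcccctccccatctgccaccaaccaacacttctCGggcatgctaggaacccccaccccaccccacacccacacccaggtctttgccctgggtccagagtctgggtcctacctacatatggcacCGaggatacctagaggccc
Rxra: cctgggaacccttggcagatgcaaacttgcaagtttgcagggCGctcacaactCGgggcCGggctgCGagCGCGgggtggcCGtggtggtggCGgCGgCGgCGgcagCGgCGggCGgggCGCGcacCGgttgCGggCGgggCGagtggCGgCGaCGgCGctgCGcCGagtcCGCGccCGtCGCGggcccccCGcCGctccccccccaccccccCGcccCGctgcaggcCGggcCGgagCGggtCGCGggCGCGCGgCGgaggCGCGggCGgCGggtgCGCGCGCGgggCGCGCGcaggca
Thrb: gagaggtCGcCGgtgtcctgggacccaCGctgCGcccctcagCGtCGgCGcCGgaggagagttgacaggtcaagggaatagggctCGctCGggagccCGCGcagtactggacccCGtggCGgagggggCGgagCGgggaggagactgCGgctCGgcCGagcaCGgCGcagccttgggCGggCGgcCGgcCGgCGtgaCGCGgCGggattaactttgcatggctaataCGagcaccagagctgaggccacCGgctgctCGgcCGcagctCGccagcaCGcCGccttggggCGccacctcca

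These windows held 2 CpG dinucleotides in Nr1i2 and 3 in Nr1i3, but 55 in Rxra and 37 in Thrb. The observed CpG number divided by that expected from the C and G content was 0.130 for Nr1i2 and 0.144 for Nr1i3, 1.08 for Rxra and 0.946 for Thrb, against a median of 0.389 over 1 RefSeq promoter from each of 27025 gene symbols. Rora (1.05) and Esrra (0.781) joined the CpG-rich group. Nr1h3 lay near the median, with 0.277 and 0.394 for its 2 listed starts. The windows at Rora, Esrra and Nr1h3, like the 4 printed above, overlapped an interval in all 8 lists. The other 3 listed starts differed. The upstream start of Nr2f2 (CpG ratio 0.109) and the second start of Thrb (0.255) overlapped an interval in no list, and the second start of Rxra (0.0459) did so in 1 list. Open chromatin at Nr2f2 was found instead around the downstream TSS in the gene body.

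The strongest promoter interval of each gene was ranked in every list. The mean percentile over the 8 libraries was 99.1 ± 0.528 (SD, n = 8) for Nr3c1, which mediates the response to cortisol and corticosterone, and 98.0 ± 0.675 for Thrb, the main thyroid hormone receptor of hepatocytes. It was 97.0 ± 1.34 for the oxysterol receptor gene Nr1h3 and 94.1 ± 3.29 for Rxra. All 8 values of these 4 genes lay at or above the 88.8th percentile. Esrra, a regulator of mitochondrial genes, had a mean of 90.9 ± 2.43, Ahr of 88.1 ± 4.15 and the clock-associated Rora of 88.0 ± 2.13. The CpG-poor Nr1i2 had 83.9 ± 5.37 and the CpG-poor Nr1i3 60.9 ± 7.35, with a range from 49.3 to 72.9 for Nr1i3. For Nr2f2 the value depended on where the line between promoter and distal was drawn. Its strongest interval within 1 kb had a mean of 77.8 ± 9.78, but in 6 of 8 lists its promoter region (chr7:70360824-70362210) was split into 2 intervals, and the stronger of them lay just beyond 1 kb from the TSS. That merged region had 88.8 and 92.4 (0 h), 83.6 and 87.0 (48 h), 89.5 and 76.1 (72 h), and 93.2 and 95.7 (96 h), a mean of 88.3 ± 6.21, close to the mean of Ahr. For the other 9 genes no such stronger interval was left out, and the merged regions kept their order. Even so, the best interval was that of the merged promoter region in only 3 of 8 lists for Rora, 5 for Nr1i2 and 6 for Nr1i3. The merged region of Rora alone had a mean of 85.1 ± 6.21, with a range from 71.8 to 92.3.

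**Figure D1:**
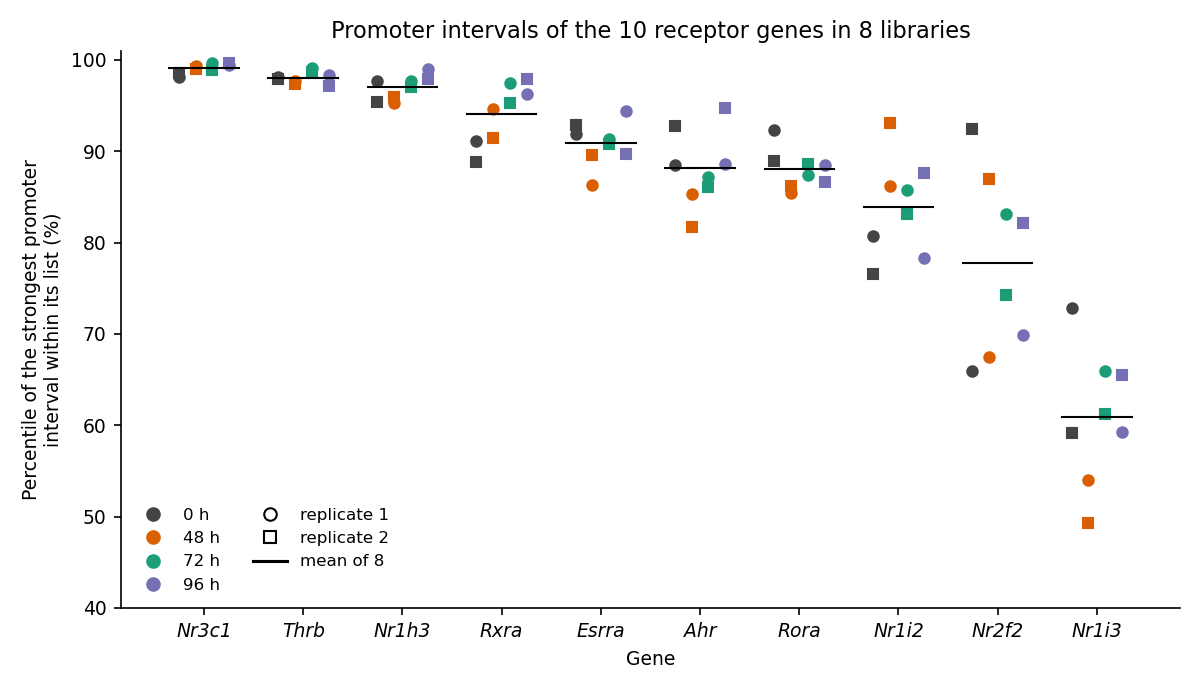
Percentile of the strongest interval within 1 kb of a TSS in each of 8 libraries, by gene (x axis) in order of the mean. Each point is 1 library, colours give the time after PHx, shapes the replicate number and black lines the mean of 8. Nr3c1 and Thrb stayed above the 97th percentile in every library, while Nr1i3 spread from 49.3 to 72.9. The points of Nr2f2, from 65.9 to 92.4, come from different intervals, and its merged promoter region ran from 76.1 to 95.7. Those of Rora, Nr1i2 and Nr1i3 also mix intervals, and the merged promoter region of Rora ran from 71.8 to 92.3.

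Not every step in this order exceeded the spread between libraries. Nr3c1 was above Thrb, and Nr1h3 above Rxra, in 8 of 8 libraries, by 1.04 ± 0.846 and 2.88 ± 2.70 percentile points (mean and SD). Thrb was above Nr1h3 in 6 of 8, Rxra above Esrra in 6 of 8, and Esrra above Ahr in 7 of 8. Nr1i2 was above Nr2f2 in 7 of 8 by the strongest interval within 1 kb, but by the merged regions Nr2f2 was above Nr1i2 in 5 of 8 and above Nr1i3 in 8 of 8. Ahr and Rora could not be ordered, with a mean difference of 0.114 ± 4.17 and Ahr higher in 3 of 8. Rora and Nr1i2 were close as well (4.08 ± 6.94, Rora higher in 5 of 8). Of 21911 protein-coding genes, 13713 (62.6%) had a promoter region among the merged regions, and the median of their mean percentiles was 89.8, with quartiles at 78.9 and 95.8. By the same measure of merged regions 5 of the 10 receptor genes lay above that median.

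For the receptors that bind drugs, the best promoter intervals within 1 kb differed in rank from 0 h in opposite directions at 48 h, but for Nr1i2 this turned on the interval chosen. The best promoter interval of Nr1i2, which encodes the receptor that switches on Cyp3a11, had rank 24391 and 24660 in the 0 h lists, 16256 and 9677 (48 h), 20024 and 26114 (72 h), and 31370 and 15824 (96 h). In the 0 and 48 h lists this was the interval upstream of the start, whereas the region over the start ranked 25106 and 24887 (0 h) and 56509 and 48615 (48 h). Both 48 h libraries thus ranked the best interval higher, and the region over the start lower, than both 0 h libraries. In 72 h replicate 2 and both 96 h libraries the best interval was the one over the start. The 72 and 96 h ranks of the best interval overlapped those of 0 h. The lists differ in length, and by percentile the 72 h values (85.7 and 83.1) lay above those of 0 h too (80.8 and 76.6). For Nr1i3, whose product controls Cyp2b10, the ranks were 34408 and 42933 (0 h), 54211 and 70670 (48 h), 47730 and 60019 (72 h), and 59049 and 43969 (96 h). Every later library ranked this best interval lower than both 0 h libraries. By percentile this held at 48 h only (54.0 and 49.3, beside 72.9 and 59.2 at 0 h), and the values of 72 h (66.0 and 61.2) and 96 h (59.203 and 65.5) lay between those of the 0 h libraries. In replicate 2 of 0 and 72 h the best interval lay upstream of the promoter region over the start. That region ranked 34408 and 47260 (0 h) and 59049 and 43969 (96 h), so its ranks at these times overlapped. Its percentile in 72 h replicate 2 was 54.1, below both 0 h values (72.9 and 55.1).

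Nr1i2 had 2 promoter regions, and their differences at 48 h had opposite signs. The region over the TSS and first exon (chr16:38294530-38295043), which the window printed above overlaps, had a fold enrichment of 6.34 and 6.48 (0 h), 3.25 and 3.61 (48 h), 3.96 and 6.18 (72 h), and 5.61 and 8.39 (96 h). The region 932 bases upstream of the TSS (chr16:38295544-38295967) gave 6.75 and 6.72 (0 h), 6.23 and 7.85 (48 h), 7.89 and 5.61 (72 h), and 5.62 and 6.56 (96 h). On the quantile-normalised log2 scale the difference of 48 h from 0 h was −0.61 ± 0.34 (SE, limma unadjusted p = 0.0894, adjusted p = 0.566) over the TSS and 0.44 ± 0.31 (unadjusted p = 0.167, adjusted p = 0.663) upstream. On that scale the 48 h libraries did not overlap those of 0 h in either region, but neither difference passed the test, and the difference between the 2 regions was not tested.

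The promoter region of Nr1i3 (chr1:171213722-171215160, over the start and the first exons) had a fold enrichment of 6.57 and 4.40 (0 h), 3.54 and 3.10 (48 h), 5.15 and 3.77 (72 h), and 4.68 and 5.39 (96 h). Its normalised log2 difference at 48 h was −0.44 ± 0.32 (adjusted p = 0.670), with −0.22 when the first and −0.68 when the second 0 h library was left out, and at 96 h it was −0.01 ± 0.32. A weaker region lay 814 bases upstream of the start and was found in 7 of 8 lists. The core AGGTCA was in 1 of 14 such windows of member promoter regions (7.14%, Nr3c1 left out), beside 19.4% of the windows of all regions. This 1 window is printed as the 200 bases around its summit (chr1:171212962-171213161, plus strand, mm10), since it held 2 copies of the receptor core AGGTCA, which are in capitals, the first of them extended to AAGGTCA.
Nr1i3 upstream: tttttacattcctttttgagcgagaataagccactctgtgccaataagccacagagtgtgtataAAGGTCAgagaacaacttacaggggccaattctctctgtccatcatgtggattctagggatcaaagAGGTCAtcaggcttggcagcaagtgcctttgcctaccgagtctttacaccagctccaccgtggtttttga

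The strongest region in the Nr1i3 window was intergenic, 9.59 kb upstream of the start (chr1:171203998-171204770). Its mean percentile of 94.4 was far above the 59.5 of the promoter region, and its fold enrichment lay between 11.3 and 19.4 in all 8 libraries, with a 48 h difference of −0.15 ± 0.20. For Nr1i2 the strongest distal regions were intronic, 14.8 and 6.89 kb inside the gene, with mean percentiles of 82.4 and 82.3, level with the promoter region at 81.9.

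Rxra encodes the shared partner. Its promoter rank was 11257 and 11817 (0 h), 6383 and 11867 (48 h), 3537 and 7379 (72 h), and 5426 and 2718 (96 h). From 72 h on, every library ranked it higher than both 0 h libraries, and by percentile those of 48 h did so too. The fold enrichment of the promoter region (chr2:27676673-27677379) was 5.35 and 5.86 (0 h) and 6.56 and 9.50 (96 h), a normalised log2 difference of 0.58 ± 0.32 (unadjusted p = 0.0915, adjusted p = 0.904). Of the 14 Rxra regions that could be tested, 11 had a positive difference at each of 48, 72 and 96 h, beside 50.1%, 47.9% and 49.3% of all regions, and 13 were positive over all PHx times, beside 48.4%. The median difference of these 14 was 0.22, 0.13 and 0.31 at the 3 times, beside medians of 0.00114, −0.02 and −0.00524 over all 55123 regions. The 14 regions belong to 1 gene and the 3 times share their 0 h libraries, so these are no independent counts. Of the 14, 1 passed an unadjusted p of 0.05 at 48 h, none at 72 h and 1 at 96 h, beside 10.3%, 6.37% and 5.74% of all regions.

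At both times that was an intron site 26.2 kb downstream of the first start (chr2:27703195-27703695). Its fold enrichment was 2.91 and 3.22 (0 h), 4.43 and 3.70 (48 h), 5.67 and 4.06 (72 h), and 4.57 and 5.12 (96 h). All 6 later libraries exceeded both 0 h libraries. On the normalised scale, both libraries of a time did so in 20.8% (48 h), 18.4% (72 h) and 16.2% (96 h) of all regions. The share of all regions that did so at every time was not counted. The normalised log2 difference was 0.66 ± 0.31 at 48 h, 0.61 ± 0.31 at 72 h and 0.71 ± 0.31 at 96 h, and for all PHx times together it was 0.66 ± 0.25 (unadjusted p = 0.0159, adjusted p = 0.537). It was chosen for display after its values were seen. The strongest distal region of Rxra covered a coding exon 81.2 kb downstream of the first start and had a mean percentile of 95.2 and differences of 0.07, 0.22 and 0.13, each below its SE of 0.31.

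Among the sensors of lipids and hormones, Nr1h3 ranked 2963 and 4842 (0 h), 5558 and 5732 (48 h), 3256 and 4645 (72 h), and 1394 and 2699 (96 h). Both 48 h libraries were below both 0 h libraries by rank and both 96 h libraries above them, although the normalised log2 difference of the promoter region (chr2:91194504-91195474) was only −0.04 ± 0.19 at 48 h and 0.34 ± 0.19 at 96 h (unadjusted p = 0.0850). By percentile the 48 h and 0 h values of Nr1h3 overlapped. The other 2 regions in its window were promoters of the neighbours Madd and Acp2.

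Thrb ranked 2385 and 2177 (0 h), 2763 and 3728 (48 h), 1248 and 2123 (72 h), and 2338 and 3715 (96 h). All of these are among the strongest intervals of their lists, and the log2 differences of the promoter region (chr14:17659972-17661496) were 0.06, 0.10 and 0.06, each with an SE of 0.22. The sign at 48 h depended on the scale. Both 48 h ranks were below both 0 h ranks, and the difference was −0.19 on the log2 of the −log10 p and −0.53 in percentile points. Nr3c1 ranked 2354 and 1493 (0 h), 854 and 1468 (48 h), 541 and 1710 (72 h), and 788 and 469 (96 h). The 48 and 96 h libraries ranked it above both 0 h libraries, by percentile those of 72 h did as well, and the log2 differences were 0.40 ± 0.24, 0.28 ± 0.24 and 0.41 ± 0.24 (unadjusted p = 0.106, 0.254 and 0.0985).

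The promoter of Ahr ranked 14528 and 7595 (0 h), 17284 and 25581 (48 h), 17927 and 21505 (72 h), and 16542 and 6711 (96 h), so that the 48 and 72 h libraries were lower than both 0 h libraries and those of 96 h overlapped them. Esrra ranked 10238 and 7515 (0 h), 16165 and 14475 (48 h), 12184 and 14277 (72 h), and 8121 and 13114 (96 h), with the same pattern. The log2 differences at 48 h were −0.32 ± 0.32 for Ahr (chr12:35534018-35535262) and −0.05 ± 0.27 for Esrra (chr19:6921248-6922185). The first was about as large as its standard error and the second smaller, and the value of Ahr rested on the 0 h libraries, with −0.64 without replicate 1 and −0.00726 without replicate 2.

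By rank, 2 of the 10 promoters (Nr1i2 and Nr3c1) were higher in each 48 h library than in either 0 h library, and 6 (Nr1i3, Ahr, Nr1h3, Rora, Esrra and Thrb) were lower. With the merged promoter regions in place of the strongest interval Nr2f2 was lower as well, ranking 14231 and 7997 (0 h) and 19362 and 18112 (48 h), which made 7. With starts taken within 500 bp Nr1i2 was lower in place of higher, which left 1 higher (Nr3c1) and made 7 lower. Over 13366 coding genes with a promoter interval in these 4 lists the same rule held for 16.4% higher and 29% lower. At 72 h the counts were 2 higher (Rxra and Thrb) and 4 lower (Nr1i3, Ahr, Rora and Esrra), beside 14.8% and 32.1% of coding genes. At 96 h they were 3 higher (Rxra, Nr1h3 and Nr3c1) and 2 lower (Nr1i3 and Rora), beside 13.7% and 20%. On the percentile scale, which divides the rank by the length of the list, 3 were higher at 48 h (Nr1i2, Rxra and Nr3c1) and 5 lower (Nr1i3, Ahr, Rora, Esrra and Thrb), beside 19.8% and 22.7%. At 72 h 4 were higher on that scale (Nr1i2, Rxra, Thrb and Nr3c1) and 3 lower (Ahr, Rora and Esrra), beside 25.9% and 17%, and at 96 h 3 higher (Rxra, Nr1h3 and Nr3c1) and 1 lower (Rora), beside 21.7% and 12.4%. By the percentile of the merged regions Nr2f2 joined the lower ones at 48 h and the higher ones at 96 h, and Nr1i2 was no longer among the higher ones at 72 h. By their rank Nr2f2 was among the lower ones at 72 h as well, and at 96 h the lower ones were Nr1i2 and Rora. With 2 libraries against 2 an exact permutation test of a single gene cannot go below p = 0.333. In limma on the percentiles of the merged promoter regions the lowest unadjusted p of the 10 at 48 h was 0.0716, for Rora, and on the log2 of the −log10 p it was 0.0396, again for Rora, with a difference of −0.89 beside −0.23 on the fold enrichment scale (unadjusted p = 0.444).

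**Figure D2:**
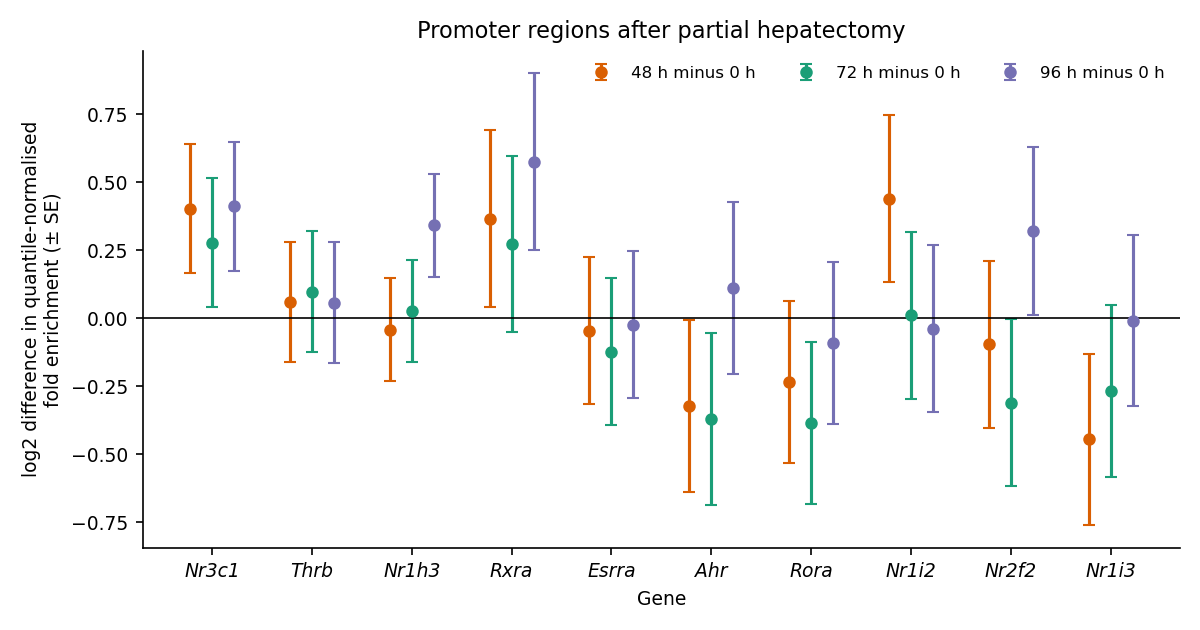
Difference in quantile-normalised log2 fold enrichment of the promoter region of each gene (x axis) between 48, 72 or 96 h and 0 h, from limma. Points are differences between the means of 2 libraries and bars their standard errors; all bars are wide, and the largest difference was 0.58 ± 0.32 for Rxra at 96 h.

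The long genes carried most of the distal regions. The window of Rora, 754 kb long, held 50 regions (6.63 per 100 kb), that of Thrb 30 and that of Rxra 21. The density was highest at Nr1i3, with 8 regions in 26.7 kb (29.9 per 100 kb), but 4 of the 8 were promoters of its neighbours Tomm40l and Apoa2. Nr1i2 and Nr3c1 had 10 regions each, Nr2f2 6, Ahr 5, Esrra 4 and Nr1h3 3. Of the 118 distal regions 103 were intronic, 10 intergenic and 5 exonic. Their median mean percentile was 63.0, beside 64.1 for all 56061 regions more than 1 kb from any TSS, and 32 of them (27.1%) were among the 50000 strongest in all 8 libraries, beside 30.3%.

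**Figure D3:**
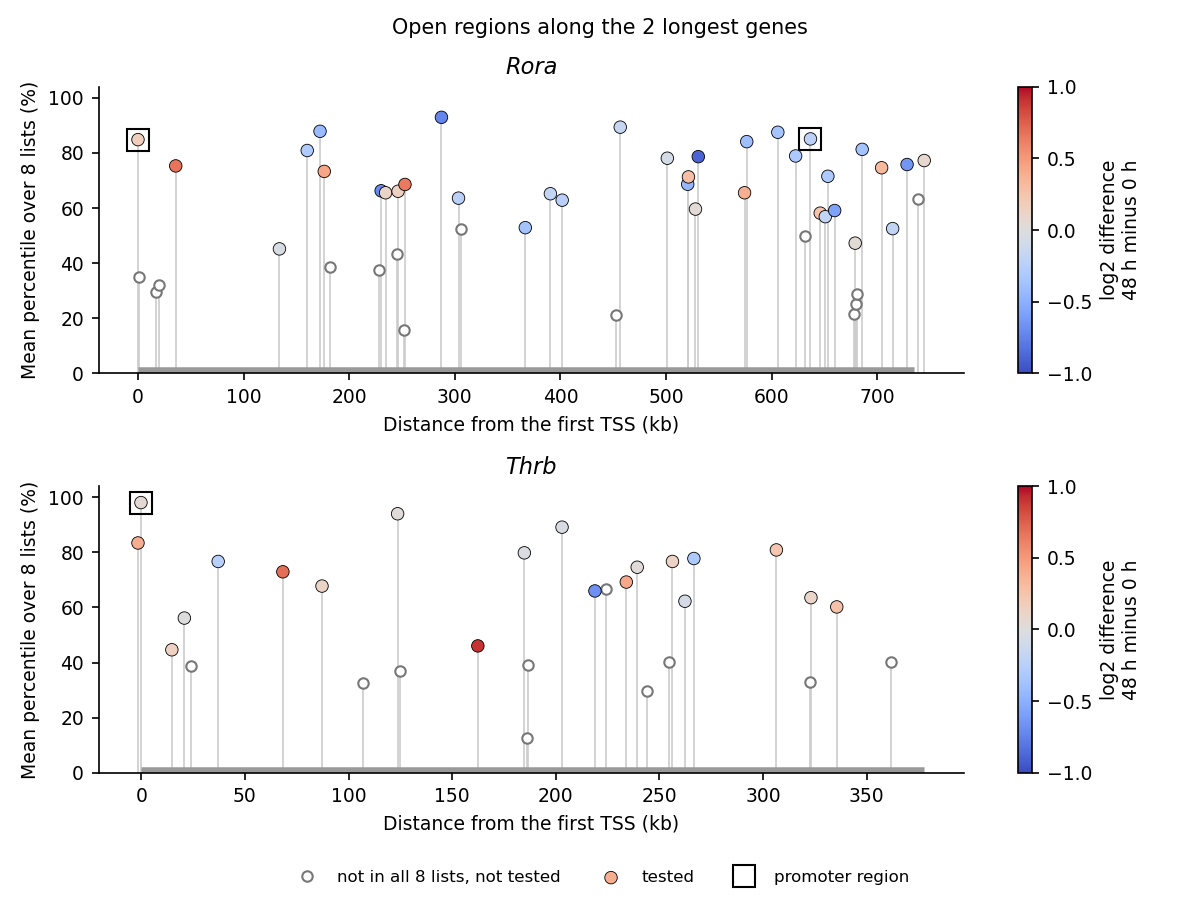
Mean percentile over 8 lists (y axis) of each merged region against its distance from the first TSS in kb (x axis) for Rora (top) and Thrb (bottom), with the gene body as a grey bar. Filled points were tested and are coloured by the log2 difference of 48 h from 0 h, open points were not in all 8 lists, and squares mark promoter regions. Of the tested regions of Rora 23 of 36 are blue (negative at 48 h), beside 49.9% of all regions.

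RORα is made from alternative starts that are far apart. The region at the first start of Rora (chr9:68653171-68654303) had a mean percentile of 84.8, and that at the internal start 636 kb downstream (chr9:69289389-69291550) had 85.1. The internal start had the better rank at 0 h (9799 and 11677, beside 30585 and 16238 at the first start) and the first start at 48 h (17179 and 19240, beside 33301 and 19527) and at 72 h (17620 and 17545, beside 18592 and 28158). At 96 h the libraries were split, with 16641 at the internal and 23508 at the first start in replicate 1 and 19549 and 17058 in replicate 2. The fold enrichment at the first start was 7.74 and 10.5 (0 h) and 7.49 and 7.61 (48 h), with a normalised log2 difference of 0.17 ± 0.28, and that at the internal start was 8.01 and 7.46 (0 h) and 4.52 and 5.86 (48 h), with a difference of −0.23 ± 0.30. Neither passed the test, and the difference between the starts was not tested.

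Of the 36 testable Rora regions 23 had a negative difference at 48 h, 22 at 72 h and 24 at 96 h, with medians of −0.19, −0.06 and −0.15, beside 49.9%, 52.1% and 50.7% of all regions. At 48 h 2 were higher and 4 lower at an unadjusted p under 0.05, beside 5.01% and 5.26% of all regions. Thrb, with 20 testable regions, had 14 positive and 6 negative (48 h), 11 and 9 (72 h), and 12 and 8 (96 h), with medians of 0.08, 0.02 and 0.06. At 48 h 2 of them were higher and none lower at that p, beside the same shares. The strongest distal region of Thrb, in an intron 124 kb downstream of the start (chr14:17784238-17784939), stayed between 9.86 and 15.1 in fold enrichment over all 8 libraries, with differences of 0.03, 0.04 and −0.05 (SE 0.23).

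The 3 regions with the smallest p at 48 h among all those of the 10 genes were a pair of Rora introns and a site upstream of Nr2f2. They are printed with the Rxra intron site as the 200 bases around the summit of the strongest interval, plus strand of mm10, so that the sequence can be read beside the values below. Capitals mark the matches named after them. The windows are chr7:70370134-70370333 for Nr2f2, chr9:68941143-68941342 and chr9:69184008-69184207 for Rora, and chr2:27703385-27703584 for Rxra.
Nr2f2 upstream: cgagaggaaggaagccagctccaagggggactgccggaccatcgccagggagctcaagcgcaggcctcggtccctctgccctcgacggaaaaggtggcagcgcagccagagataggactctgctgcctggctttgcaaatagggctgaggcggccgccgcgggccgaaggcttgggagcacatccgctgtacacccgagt
Rora intron A: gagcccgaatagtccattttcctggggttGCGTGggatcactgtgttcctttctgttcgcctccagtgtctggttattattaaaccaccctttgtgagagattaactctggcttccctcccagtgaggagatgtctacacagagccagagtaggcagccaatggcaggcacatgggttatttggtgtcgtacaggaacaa
Rora intron B: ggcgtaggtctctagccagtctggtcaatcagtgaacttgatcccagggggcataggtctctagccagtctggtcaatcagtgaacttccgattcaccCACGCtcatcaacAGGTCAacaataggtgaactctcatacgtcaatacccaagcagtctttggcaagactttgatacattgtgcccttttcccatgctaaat
Rxra intron: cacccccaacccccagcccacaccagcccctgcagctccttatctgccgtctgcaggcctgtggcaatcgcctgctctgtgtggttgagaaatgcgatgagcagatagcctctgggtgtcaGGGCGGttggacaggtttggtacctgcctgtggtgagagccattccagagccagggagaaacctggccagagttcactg

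Rora intron A held the core GCGTG of the xenobiotic response element, Rora intron B held that core on the other strand and the receptor core AGGTCA, and the Rxra site held a GC box, GGGCGG. The window of Nr2f2 held none of the 9 motifs searched.

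Rora intron A (chr9:68940575-68941564, 287 kb from the first start) was the strongest distal region of the gene. Its fold enrichment was 17.5 and 20.9 (0 h), 7.35 and 10.1 (48 h), 17.7 and 15.7 (72 h), and 12.6 and 17.0 (96 h). On this scale both 48 h values lay below all 6 others, but after normalisation 48 h replicate 2 (3.55) was level with 96 h replicate 1 (3.54), and the 48 h libraries lay below those of 0 and 72 h. The normalised log2 difference was −0.73 ± 0.22 at 48 h (unadjusted p = 0.00303, adjusted p = 0.296), −0.09 ± 0.22 at 72 h and −0.30 ± 0.22 at 96 h. Rora intron B (chr9:69183913-69184616, 530 kb from the first start) gave 13.6 and 12.9 (0 h), 4.62 and 6.39 (48 h), 12.4 and 8.34 (72 h), and 9.10 and 9.81 (96 h). Here the 48 h libraries were the lowest of the 8 on both scales, and the difference was −0.89 ± 0.27 (unadjusted p = 0.00417, adjusted p = 0.301). In these same 48 h libraries the mean percentile of the hepatocyte marker promoters was 41.9 and 58.6, beside 75.4 and 70.6 (0 h), and its part in the lower values was not tested.

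COUP-TFII is an orphan receptor that is abundant in venous endothelium and in mesenchymal cells and is present in hepatocytes too. The site upstream of Nr2f2 (chr7:70369693-70370787) lay 3505 bases before its 5′ start, as measured from its middle like the other distances here, in an intron of the divergent noncoding gene B130024G19Rik. Its fold enrichment was 4.40 and 5.08 (0 h), 8.54 and 6.48 (48 h), 7.69 and 6.21 (72 h), and 5.28 and 3.14 (96 h). The 48 and 72 h libraries were above both 0 h libraries, and those of 96 h overlapped them. It ranked 71792 and 57461 (0 h), 17825 and 32759 (48 h), 36526 and 45478 (72 h), and 61976 and 100836 (96 h), so that it was among the 50000 strongest in both libraries of 48 and 72 h and in neither library of 0 or 96 h. The normalised log2 difference was 1.0 ± 0.33 at 48 h (unadjusted p = 0.00674, adjusted p = 0.331), 0.53 ± 0.33 at 72 h and −0.19 ± 0.33 at 96 h.

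The open region by the internal start of Nr2f2 (chr7:70360824-70362210) had differences of −0.10, −0.31 and 0.32 (SE 0.31). The mean percentile of the endothelial marker promoters was 10.2 and 12.3 in the 0 h libraries, 15.2 and 28.7 (48 h), 15.2 and 21.2 (72 h), and 31.0 and 13.8 (96 h), with absent promoters counted as 0. Of the 6 genes, Stab2 and Lyve1 had no promoter interval in any list, Kdr had one in 8, Cdh5 in 6 and Pecam1 in 3. Clec4g, a gene of the sinusoidal endothelium, had one in 2 lists, at percentile 91.4 in 48 h replicate 2 and 91.5 in 96 h replicate 1. For the stellate cell markers the values were 31.3 and 26.2 (0 h), 32.9 and 44.8 (48 h), 30.4 and 41.1 (72 h), and 30.7 and 29.6 (96 h). The part of other cell types in the Nr2f2 values was not tested.

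**Figure D4:**
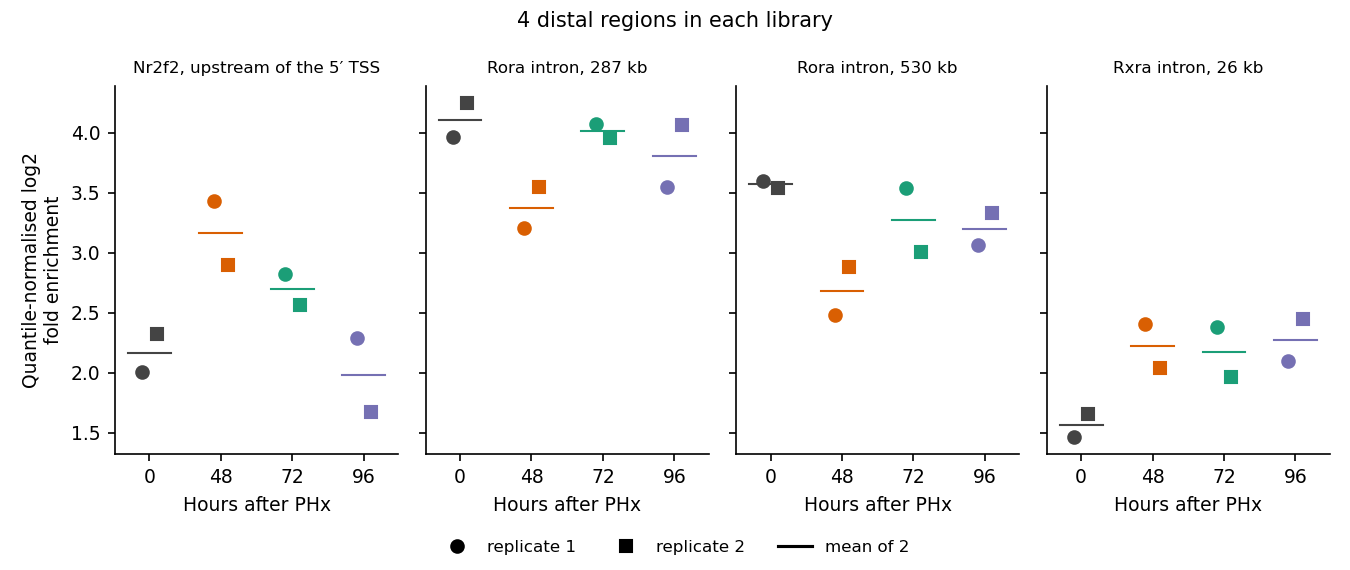
Quantile-normalised log2 fold enrichment (y axis, shared) of the site upstream of Nr2f2, both Rora introns and the Rxra intron in each library against hours after PHx (x axis). Circles are replicate 1, squares replicate 2 and lines the mean of 2. The mean of the Nr2f2 site was highest at 48 h, the means of both Rora introns were lowest at 48 h, and the Rxra site was lower in both 0 h libraries than in any later one.

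The other strong distal regions were at long distances too. In Nr3c1, whose promoter region was chr18:39488928-39490919, the strongest was an intron region 59.8 kb downstream of the first start (chr18:39430579-39431126). It had a mean percentile of 90.3 and differences of −0.17, 0.02 and −0.19 (SE 0.26). The other lay 23.2 kb downstream of that start, with a mean percentile of 76.4 and a difference of 0.49 ± 0.29 at 72 h. Rora had a further intron region at 457 kb with a mean percentile of 89.3, Thrb a region at 203 kb with 89.1 and Rxra a region at 25.1 kb with 89.0. Ahr had no strong distal region, the best being a coding exon region with a mean percentile of 49.95. In the windows of Nr2f2 and Esrra the strongest region besides the promoter belonged to neighbouring genes, at the start of the noncoding Gm44946 (84.2) and between Prdx5 and Trmt112 (75.04).

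Other member regions past an unadjusted p of 0.01 were the promoter of Tomm40l next to Nr1i3 (0.91 ± 0.31 at 48 h, unadjusted p = 0.0086, adjusted p = 0.343), a weak intron region of Thrb at 162 kb (0.90 ± 0.31 at 48 h, unadjusted p = 0.00855, adjusted p = 0.343) and a Rora intron region at 402 kb (−1.02 ± 0.32 at 72 h, unadjusted p = 0.00516, adjusted p = 0.597). These 3 were picked after their values were seen. The Thrb region ranked from 39868 to 102356 and was among the 50000 strongest in 1 library.

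None of these differences survived adjustment. In the limma fit over the 55123 regions with an interval in all 8 lists, 105 of the 147 member regions could be tested and 42 could not. The number called at an adjusted p under 0.05 with a log2 difference over 0.5 was 0 of 105 at 48 h, 0 at 72 h, 0 at 96 h and 0 over all PHx times, and over all regions tested it was likewise 0% in each comparison. The lowest adjusted p of a member region was 0.296, 0.597, 0.850 and 0.537 in these 4 comparisons. At an unadjusted p under 0.05 there were 11 member regions at 48 h (7 higher and 4 lower, 10.5%), beside 10.3% of all regions. There were 3 at 72 h, all lower, beside 6.37%, 6 at 96 h (2 higher and 4 lower), beside 5.74%, and 5 over all PHx times (1 higher and 4 lower), beside 7.97%.

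Regions whose libraries did not overlap were counted as well. Both 48 h libraries exceeded both 0 h libraries in 25 of the 105 regions, beside 20.8% of all regions, and lay below them in 21, beside 20.5%. At 72 h the counts were 19 above and 17 below, beside 18.4% and 20.2%, and at 96 h 14 above and 18 below, beside 16.2% and 16.8%. The median moderated standard error of a member difference was about 0.31 on the log2 scale at each time. This sets the size of difference that 2 libraries a time point could show in this fit. Of the 147 member regions 50 (34.0%) were among the 50000 strongest in all 8 libraries, beside 38.7% of all regions, and 34 (23.1%) in only 1 library, beside 16.4%.

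The motifs were counted in the same 200-base windows around the summits of 110 distal member regions, the 8 of Nr3c1 being left out, on both strands. The receptor core AGGTCA was in 23 (20.9%), beside 22.2% of the windows of all 56061 distal regions. The extended form AAGGTCA, which contains that core and is bound by RORα and ERRα as single proteins, was in 9 (8.18%), beside 7.25%. The core GCGTG bound by AHR was in 12 (10.9%), beside 12.3%, and is short enough to occur often by composition. The paired cores with a spacer of 1 base (DR1) or of 4 bases (DR4) were in none, beside 0.0928% and 0.0214% of all distal windows. The E-box CACGTG was in 1, beside 2.99%, the AP-1 site TGAGTCA in 4, beside 6.27%, the FOXA core TGTTTAC in 4, beside 5.74%, and the GC box GGGCGG in 5, beside 6.45%. A match is a description of the letters and not evidence of binding. In the RefSeq promoter windows AGGTCA occurred at 1 position at the first start of Thrb and at 2 positions, 1 of them extended to AAGGTCA, at the second start of Rxra, where 1 list had an interval. The other windows held none, beside 16.3% of 32851 promoters. The window of Nr1i3 held the AP-1 site and the E-box, found in 5.20% and 7.15% of promoters.

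The genes around these receptors were read in the same fit through their promoter regions. Of 40 other nuclear receptor genes 35 had a testable promoter region, and 5 (Nr0b1, Nr1h5, Nr2e1, Nr2e3 and Nr5a1) had none. At an adjusted p under 0.05 limma called 0 of the 35 at any time, and at an unadjusted p under 0.05 there were 3 higher and 0 lower at 48 h, beside 5.01% and 5.26% of all regions, and 0 at 72 and 96 h. The 3 were Nr4a3, an immediate early receptor (0.80 ± 0.31, unadjusted p = 0.0174, adjusted p = 0.387), the oestrogen receptor gene Esr2 (0.81 ± 0.34, unadjusted p = 0.0289, adjusted p = 0.430) and Nr2f1, the closest relative of Nr2f2 (0.71 ± 0.31, unadjusted p = 0.0346, adjusted p = 0.446). The fold enrichment at Nr4a3 was 4.19 and 2.69 (0 h), 5.05 and 4.47 (48 h), 5.52 and 4.77 (72 h), and 4.34 and 4.48 (96 h), so that all 6 later libraries were above both of 0 h. The share of all regions with that pattern was not counted. The median difference of the 35 was 0.10 at 48 h, −0.04 at 72 h and −0.01 at 96 h.

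All 14 partners and coregulators were testable and 0 were called by limma. Ahrr encodes the repressor of AHR signalling. Its fold enrichment was 3.98 and 6.76 (0 h), 6.46 and 5.96 (48 h), 8.30 and 11.5 (72 h), and 8.27 and 8.18 (96 h). The values of 72 and 96 h were above both 0 h libraries, those of 48 h were so only after normalisation, and the differences were 0.62 ± 0.32 at 48 h, 0.94 ± 0.32 at 72 h (unadjusted p = 0.00911, adjusted p = 0.639) and 0.73 ± 0.32 at 96 h (unadjusted p = 0.0354, adjusted p = 0.861). No other member of this list passed an unadjusted p of 0.05. Of 24 target genes 19 were testable, through 18 regions, since Abcg5 and Abcg8 share one. None passed even that unadjusted p at any time, beside 10.3%, 6.37% and 5.74% of all regions, with limma calling 0. The 5 that lacked an interval in at least 1 list, and so could not enter the test, were Cyp2c29, Cyp1a2, Thrsp, Tat and Pck1. Those of Cyp1a2 and Tat were absent from both 48 h lists and present in the other 6, with a fold enrichment at 0 h of 4.93 and 5.47 for Cyp1a2 and 4.51 and 3.78 for Tat. At 72 h it was 5.15 and 5.41 for Cyp1a2 and 2.97 and 4.34 for Tat, and at 96 h 2.70 and 2.80 for Cyp1a2 and 3.77 and 3.75 for Tat. Their mean percentiles, with absences counted as 0, were 37.5 and 50.1. How many of all regions had this pattern was not counted, so it is no result about these genes. The median difference of the 18 regions was −0.04, −0.07 and 0.06 at the 3 times.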

How the data were processed

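The authors ran the ENCODE ATAC-Seq pipeline: reads were trimmed, aligned to mm10 with Bowtie2, stripped of duplicates and peaks called with MACS2 for each library. Tool versions are not given in the sources used here. The file names describe Tn5-shifted tags, a p threshold, a cap on peak number and a blacklist filter. Per peak the deposited lists hold a display score (not used), a fold enrichment ratio, a −log10 p, a −log10 q and a summit. Read counts are not in them, so depth is unknown and the study's count test could not be run, although its 2 thresholds were kept.

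Lines with the same interval were collapsed to the highest −log10 p and ranked. The 50000 strongest of each list were merged (overlap of at least 1 bp), and a region took the value of the strongest overlapping interval in each full list. The 55123 regions with a value in all 8 lists were fitted in limma 3.58.1 (R 4.3.3, trend, 1 mean per time point, Benjamini-Hochberg over all regions), tested first on simulated data. Other steps used Python 3.11.15, with GENCODE (M21) starts and GRCm38.p6 sequence. The members and lists were chosen with earlier results of these data known. Each gene was named with its strongest promoter region and up to 2 distal regions, beside the 3 member regions and 4 listed genes with the smallest p at 48 h, and any others are said to be chosen later. Alternatives varied the scale, normalisation, filters, region set, window, variance model, replicate block and libraries. Each list was read by chromosomes 1 to 19, X and Y.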

Additional observations from a re-analysis of the deposited data

How the results depend on the processing

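No member region was called in any comparison under any alternative run, and the same held for all regions except as follows. With log2 of the −log10 p in place of fold enrichment, the calls over all regions were 21 at 48 h, 2 at 72 h, 1 at 96 h and 37 over all PHx times. Leaving out 1 library at a time gave 0 to 7 calls at 48 h, 0 to 6 at 72 h, 0 to 1 at 96 h and 0 to 41 over all PHx times. Omitting the first 48 h library gave the 7 and omitting the second gave 4, and without the first 0 h library there were 6 at 72 h and 41 over all PHx times. The cause was not tested. The lone library then left in a group was assumed to vary like the others.

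The 48 h difference of the Thrb promoter changed sign to −0.19 with the −log10 p scale and −0.53 on the percentile scale. On the −log10 p scale several differences were further from 0 than on the fold enrichment scale, with −0.89 for Rora (unadjusted p = 0.0396, the only one of the 10 under 0.05), −0.73 for Nr1i3, −0.65 for Ahr, −0.50 for Nr2f2, −0.46 for Esrra, −0.24 for Nr1h3 and 0.69 for Nr1i2, and 0.21 for Rxra and 0.24 for Nr3c1 were nearer. The merged promoter regions, an alternative chosen after the data were seen, gave 2 higher and 7 lower by rank at 48 h. Near-zero differences also changed sign without a library: that of Nr1h3 ranged from −0.0873 to 0.00295, that of Nr2f2 from −0.235 to 0.0325 and that of Esrra from −0.151 to 0.0536, the positive ones without 0 h replicate 1 for Nr1h3, without 0 h replicate 2 for Nr2f2 and without 0 h replicate 2 or 48 h replicate 2 for Esrra. Over the same omissions the 48 h difference lay between 0.33 and 0.56 for Nr1i2, 0.17 and 0.57 for Rxra, 0.25 and 0.56 for Nr3c1, 0.04 and 0.08 for Thrb, and −0.40 and −0.08 for Rora. With starts taken within 500 bp, the mean percentile of the Nr1i2 promoter region was 72.7 in place of 81.9, and, as alternatives chosen after the data were seen, its 48 h difference was −0.61 in place of 0.44 and the counts by rank at 48 h were 1 higher and 7 lower. Leaving out 1 library of 0 or 48 h gave 2 to 3 promoters ranked higher at 48 h and 6 to 7 ranked lower.

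The replicate numbers of the labels did not pair the libraries: the correlations of same-numbered deviations lay between −0.06 and 0.128. A fit with the replicate number as a block (replicate block) gave 0 calls in each comparison, for all regions and for the member regions. Depth is unknown, so no interval for a single value was given.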
